A study of Caenorhabditis elegans with 2 samples.

Results

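Binding of the nuclear receptor NHR-6 was described at 9 Caenorhabditis elegans genes that encode basic helix-loop-helix (bHLH) transcription factors of metabolism and of the response to low oxygen. These genes were hlh-11, hlh-30, aha-1, hif-1, ahr-1, mml-1, mxl-2, mxl-3 and mdl-1, that is 9 of the 19973 protein-coding genes on the nuclear chromosomes. They were chosen by name, at a time when the promoter peaks of these libraries were known, so their counts are given as a description and carry no test. The data were peak lists from ChIP-seq, in which the tagged protein is precipitated with the DNA it is crosslinked to. Both biological replicates were whole second-stage (L2) larvae of strain OP90, genotype unc-119(ed3) III; wgIs90, with males and females pooled. The strain carries an integrated transgene that makes eGFP-tagged NHR-6, the worm receptor of the NR4A class, in animals with an unc-119 mutation. The 2 replicates form 1 group, and neither an untagged strain nor an input library was analysed here, so no condition is compared with another.

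Proteins of the bHLH family bind DNA as pairs, each partner reading one side of a short sequence that is often the palindrome called an E-box. HIF-1 pairs with AHA-1, the worm ARNT, to switch on genes at low oxygen, and is otherwise hydroxylated by EGL-9 and degraded through VHL-1, while AHR-1, the aryl hydrocarbon receptor, also pairs with AHA-1. HLH-30, the worm TFEB, switches on autophagy and lysosome genes in fasting, MXL-3 is a Max-like repressor of lysosomal lipase genes in fed animals, and MML-1 with MXL-2 is the worm Mondo and Mlx pair, whose mammalian relatives respond to glucose. MDL-1 is the worm Mad, a partner of the Max protein MXL-1, and HLH-11 is the worm AP-4.

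The authors' optimal set held 1662 peaks, which were the highest of a pooled relaxed list of 30000 peaks, and each replicate had a relaxed list of 30000 peaks of its own. Each peak carries a signal value given by the authors, with a scaling that was not given in the sources used here, so signals are read only within a list and ranks (1 is the highest) are set side by side. Pooled signal ran to 912.7 in the optimal set, with a median of 77.2 and a lowest value of 52.6, and the next pooled peak, at rank 1663, also rounded to 52.6. Read depth cannot be read from peak lists. Bound genes are those with the summit of an optimal peak in a promoter window, which ran from 1000 bp before to 200 bp after any annotated 5′ end, and such an end in worms is often a trans-splice site and not the start of transcription.

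Within 3 kb of the 9 genes lay 14 optimal summits, and the DNA under them differed in sequence between genes, a split that was noticed after the matches had been seen. All 8 summits at mdl-1, mxl-3 and mml-1 had the E-box CACGTG within 100 bp, against 0 of the 6 summits at hlh-11, hlh-30, aha-1 and hif-1, and 4 of the 8 had it within 50 bp. The genes were grouped by this match, so the contrast of 8 of 8 with 0 of 6 follows from the grouping. The 8 summits with the E-box are shown because the sequences under them share that word. CACGTG is known to be bound by proteins of the Myc, Max and Mondo group, to which MDL-1, MXL-3 and MML-1 belong, and also by TFEB proteins such as HLH-30, whose own gene had it at 0 of its 2 summits. Each is written 5′ to 3′ along the strand of the gene, from the RefSeq genome WBcel235 (the same assembly as ce11), with every CACGTG in capitals. One of the mdl-1 stretches is cut to 173 bases, so that it ends at the annotated start of the gene.
mdl-1, 1149 bp upstream, chrX:6741102-6741302, plus strand: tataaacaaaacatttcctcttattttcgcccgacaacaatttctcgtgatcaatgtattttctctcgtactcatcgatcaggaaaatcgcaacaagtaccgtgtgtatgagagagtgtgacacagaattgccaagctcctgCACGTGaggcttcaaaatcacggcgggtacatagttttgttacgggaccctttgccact
mdl-1, 633 bp upstream, chrX:6741618-6741818, plus strand: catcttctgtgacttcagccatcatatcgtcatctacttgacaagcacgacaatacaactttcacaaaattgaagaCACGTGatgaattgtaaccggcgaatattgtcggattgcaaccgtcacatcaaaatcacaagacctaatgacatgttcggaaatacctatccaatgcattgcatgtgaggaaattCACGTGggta
mdl-1, 73 bp upstream, chrX:6742178-6742350, plus strand: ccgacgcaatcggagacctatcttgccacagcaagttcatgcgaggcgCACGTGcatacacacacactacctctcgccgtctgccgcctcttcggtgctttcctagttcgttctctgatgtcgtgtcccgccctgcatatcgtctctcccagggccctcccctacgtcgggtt
mdl-1, intron, chrX:6742966-6743166, plus strand: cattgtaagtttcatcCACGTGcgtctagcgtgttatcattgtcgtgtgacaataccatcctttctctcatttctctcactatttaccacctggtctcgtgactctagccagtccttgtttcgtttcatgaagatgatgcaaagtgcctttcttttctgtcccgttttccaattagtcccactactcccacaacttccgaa
mdl-1, past the gene's end, chrX:6743915-6744115, plus strand: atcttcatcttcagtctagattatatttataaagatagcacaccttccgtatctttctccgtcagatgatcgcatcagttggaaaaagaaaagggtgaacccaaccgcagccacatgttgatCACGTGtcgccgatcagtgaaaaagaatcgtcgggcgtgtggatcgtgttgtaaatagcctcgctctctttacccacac
mxl-3, upstream, chrX:13353597-13353797, minus strand: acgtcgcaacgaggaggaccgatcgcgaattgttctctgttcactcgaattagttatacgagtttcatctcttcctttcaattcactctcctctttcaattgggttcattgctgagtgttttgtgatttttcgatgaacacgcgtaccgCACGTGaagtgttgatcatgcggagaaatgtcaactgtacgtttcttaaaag
mxl-3, past the gene's end, chrX:13348496-13348696, minus strand: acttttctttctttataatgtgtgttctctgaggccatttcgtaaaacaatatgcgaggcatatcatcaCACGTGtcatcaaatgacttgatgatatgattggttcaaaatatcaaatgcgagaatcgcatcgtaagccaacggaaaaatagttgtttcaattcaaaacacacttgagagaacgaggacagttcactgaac
mml-1, upstream, chrIII:7376519-7376719, minus strand: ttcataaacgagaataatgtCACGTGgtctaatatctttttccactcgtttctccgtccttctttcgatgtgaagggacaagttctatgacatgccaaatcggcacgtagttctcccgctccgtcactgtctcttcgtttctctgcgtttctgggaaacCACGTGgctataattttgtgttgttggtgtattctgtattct

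All 6 summits at hlh-11, hlh-30, aha-1 and hif-1 had the GA repeat GAGAGA, or its complement TCTCTC, within 50 bp. So did 3 of the 8 summits of the other genes and 33.2% of all optimal peaks. Within 100 bp, the width used to group the genes, the repeat was found at all 6 and at 4 of the 8. The share of all optimal peaks at that width was 48.2%. The E-box and the repeat thus occurred together at some summits. The repeat was searched after these stretches had been read, so its count only describes them. The 5 stretches of hlh-11, hlh-30 and hif-1 are shown from the same genome, with 50 bases on each side of the summit and GAGAGA or TCTCTC in capitals, because they are 5 of the 6 summits counted. The sixth, that of aha-1, has matches that start 32 and 34 bases after its summit and is not printed. In hlh-11 the matches start between 11 bases before the summit and 25 bases after it, and in the 970 bp site of hlh-30 the longest run starts 10 bases before the summit.
hlh-11, 374 bp upstream, chrIII:9619287-9619387, plus strand: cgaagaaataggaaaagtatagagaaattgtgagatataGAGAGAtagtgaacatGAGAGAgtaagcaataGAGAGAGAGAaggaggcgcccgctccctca
hlh-30, 970 bp upstream, chrIV:4019964-4020064, minus strand: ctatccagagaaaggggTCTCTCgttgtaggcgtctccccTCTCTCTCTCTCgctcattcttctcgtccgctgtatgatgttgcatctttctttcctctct
hlh-30, 238 bp upstream, chrIV:4028315-4028415, minus strand: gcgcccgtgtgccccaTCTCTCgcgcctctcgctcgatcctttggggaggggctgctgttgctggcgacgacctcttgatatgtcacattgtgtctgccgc
hif-1, 1987 bp upstream, chrV:20778370-20778470, plus strand: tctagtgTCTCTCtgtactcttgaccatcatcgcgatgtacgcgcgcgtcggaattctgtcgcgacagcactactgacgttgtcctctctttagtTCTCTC
hif-1, 59 bp upstream, chrV:20782363-20782463, plus strand: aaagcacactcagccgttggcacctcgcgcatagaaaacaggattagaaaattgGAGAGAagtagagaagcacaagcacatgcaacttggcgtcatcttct

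Over the 7 summits in promoter windows, CACGTG was found within 50 bp of 1 and within 100 bp of 2, both at mdl-1, against 5.84% and 9.51% of all optimal peaks. Over all 14 summits, 7 of which were let in by a limit of 3 kb set after the values had been seen, it was found within 50 bp of 4 (28.6%), 3 of them at mdl-1, against 97 of all 1662 optimal peaks (5.84%) and 2.33% of the 28338 pooled peaks below the optimal set. With 100 bp on each side it was found at 8 of 14, against 158 of 1662 optimal peaks. In the 3014 bp that span the mdl-1 stretches, CACGTG occurred 7 times, or 2.32 per kb, against 0.139 per kb over the whole of chromosome X. This stretch was picked with its matches known, and a whole chromosome is not a like background for bound DNA. Of the 370 optimal peaks on chromosome X, 37 (10%) had CACGTG within 100 bp. The 5 mdl-1 summits are neighbours in one stretch of DNA and are not independent sites. GAGAGA was found within 50 bp of 9 of 14 summits (64.3%), against 33.2% of all optimal peaks and 9.19% of the lower pooled peaks. The hypoxia core ACGTG, the short sequence that HIF-1 with AHA-1 reads, was found at 5 of 14 summits (35.7%), against 17.3% of all optimal peaks, but it lies inside CACGTG and 4 of these 5 summits hold that E-box within 50 bp. The core GCGTG of the aryl hydrocarbon receptor was found at 2 of 14 (14.3%), against 18.7% of all optimal peaks. The AP-4 type E-box CAGCTG was found at 0 of 14, against 3.61%, and the NR4A element AAAGGTCA at 0 of 14, against 0.481%. Both strands were searched. The median share of G and C within 50 bp was 46.0% at the 14 summits and 44.6% at all optimal peaks. A match is a stretch of letters and not a measured contact with any factor.

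**Figure D1:**
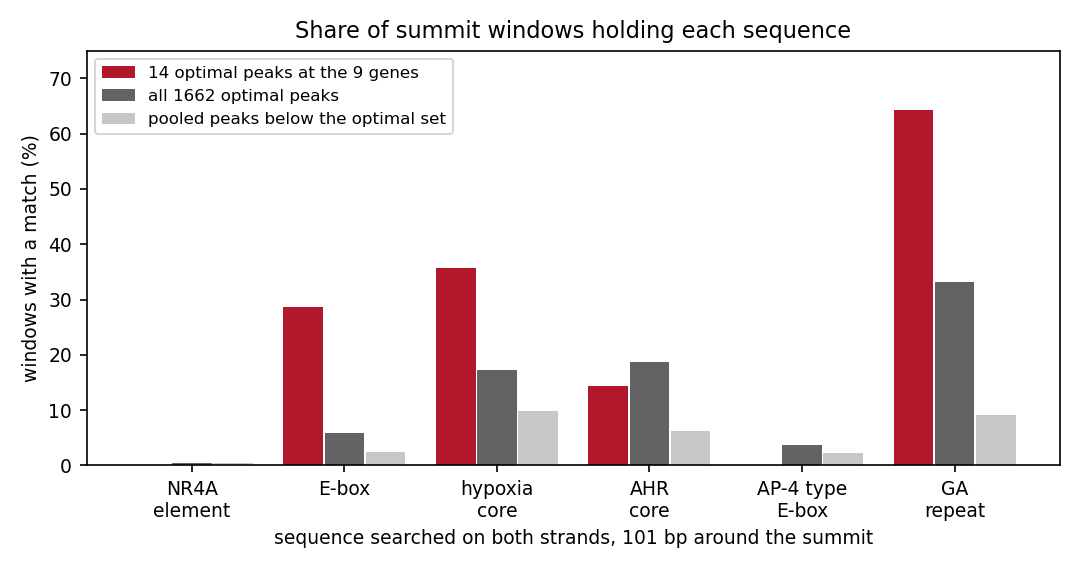
Share of summits with each sequence within 50 bp on either strand (percent), for the 14 optimal peaks within 3 kb of the 9 genes, all 1662 optimal peaks and the lower pooled peaks. The E-box bar stands at 28.6% for the 14 peaks (4 peaks, 3 of them at mdl-1 and 1 of them in a promoter window), against 5.84% for all optimal peaks, and the GA repeat, chosen after its sequences were read, at 64.3% against 33.2%.

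Of the 9 genes, 5 were bound at a promoter, namely hlh-11, hlh-30, aha-1, hif-1 and mdl-1. The background was 1186 of 19973 protein-coding genes, or 5.94%, and on chromosome X, where mdl-1 and mxl-3 lie, 6.7% of genes. Since the genes were picked with their peaks in view, nothing is read from the excess. At least 2 optimal summits in promoter windows were found for hlh-30 and mdl-1, 2 of 9 genes, against 0.21% of all genes. A gene with more annotated 5′ ends has more windows, and the background was not matched for this. Such ends number 10 at hlh-30, 6 at hlh-11, 4 at hif-1, 1 at aha-1 and 1 at mdl-1. An optimal summit in an intron and outside the gene's own promoter windows was found for mdl-1 alone of the 9, against 1.01% of all genes. A gene had a replicated relaxed peak where summits of both replicates lay in its window within 100 bp of one another, which held for 6 of 9, the bound 5 and mxl-3, against 13.8% of all genes. A pooled relaxed summit lay in the window of 8 of 9, all but ahr-1, against 41.3% of all genes. With the wider limit of 3 kb around the gene, 7 of 9 genes had an optimal summit, against 13.5% of all genes, and ahr-1 and mxl-2 had none.

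**Figure D2:**
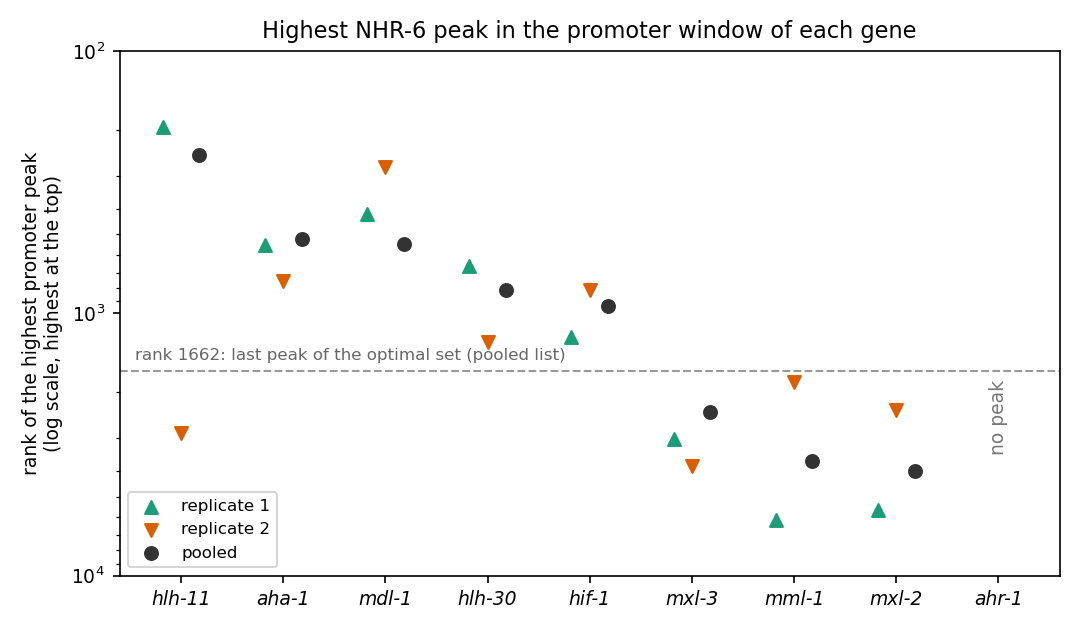
Rank of the highest peak in the promoter window of each of the 9 genes (log axis, highest at the top) in replicate 1, replicate 2 and the pooled list, with the last optimal peak, rank 1662, as a dashed line. The pooled ranks of the 5 bound genes run from 250 to 942, hlh-11 stands at 195 in replicate 1 and 2862 in replicate 2, and ahr-1 has no peak.

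The factors of the hypoxia group, hif-1 and aha-1, were both bound, and ahr-1 was not. The promoter summit of hif-1, at 20782413 on chromosome V, lay 59 bp upstream of the 5′ end of the shortest transcript and inside an intron of 5 of the 6 annotated transcripts. Its signal was 71.8 in the pooled list (rank 942), 47.3 in replicate 1 (rank 1236) and 22.6 in replicate 2 (rank 817). The replicates therefore placed it inside their 1662 highest peaks. A larger peak, with its summit at 20778420, lay 1987 bp upstream of the nearest annotated hif-1 start and so outside the promoter window. It had a signal of 272.5 in the pooled list (rank 49), 242.7 in replicate 1 (rank 37) and 38.1 in replicate 2 (rank 231), the highest pooled signal of the 14 summits. That summit lay in no annotated gene, and the nearest start of another protein-coding gene, F38A6.4, was 3051 bp away. Between these peaks the relaxed pooled list held weaker summits at 529 bp (signal 46.4, rank 2082) and 644 bp (signal 43.1, rank 2389) upstream of hif-1 starts, both below the lowest optimal peak.

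The gene aha-1, which encodes the shared partner of HIF-1 and AHR-1, had 1 optimal summit at 10197211 on chromosome I, 214 bp upstream of its single annotated start. Its signal was 96.9 in the pooled list (rank 520), 70.6 in replicate 1 (rank 549) and 23.5 in replicate 2 (rank 756). Of the promoter summits of the 5 bound genes it was the one shared with another protein-coding gene, C25A1.15, whose start lies 110 bp away and is the nearer of the pair. The peak cannot be assigned to one of these genes. In contrast ahr-1 had no summit of any list in its promoter windows. Its nearest pooled peaks had signals of 21.95 (rank 11043) and 15.1 (rank 27149) and lay 2929 bp into the gene and 1788 bp upstream of it, outside those windows.

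The gene hlh-30 had 2 promoter summits, both inside the long gene and each upstream of an internal start. The summit at 4020014 on chromosome IV lay 970 bp upstream of a start, close to the edge of the window, in an intron of 7 of the 13 transcripts and in an exon of the non-coding gene W02C12.4, 24 bp after its start. It had a signal of 78.1 in the pooled list (rank 813), 65.6 in replicate 1 (rank 662) and 18.6 in replicate 2 (rank 1286, with its summit 89 bp away). The summit at 4028365 lay 238 bp upstream of another start, in an intron of 3 of 13 transcripts, and also fell in the window of the non-coding gene F35F11.4, 554 bp upstream of it. Its signal was 61.1 in the pooled list (rank 1262) and 57.1 in replicate 1 (rank 900), and replicate 2 had no summit within 100 bp, its nearest lying 223 bp away at rank 22469. At the outermost start of hlh-30 the pooled list had only a weak summit, 299 bp upstream, with a signal of 24.8 (rank 8008). Both optimal peaks of this TFEB gene thus lay nearest to internal starts, and 1 of them had a matching summit in replicate 1 alone.

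The gene hlh-11 had the highest promoter signal of the 9 genes in the pooled list and in replicate 1, but not in replicate 2. Its summit at 9619337 on chromosome III lay 374 bp upstream of the outermost start, in no annotated gene, with a signal of 135.0 in the pooled list (rank 250), 120.7 in replicate 1 (rank 195) and 13.8 in replicate 2 (rank 2862). The replicates placed it far apart, among the 1662 highest peaks of replicate 1 and outside those of replicate 2, where the summit fell at the same base. A second start region of hlh-11, inside the gene, had a pooled summit of 40.8 (rank 2629), 900 bp upstream of that start and below the optimal set.

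The gene mdl-1, which encodes the worm Mad, had more optimal summits within 3 kb than the other 8 genes described, with 5 over 2813 bp, spaced 516 to 949 bp apart, at a gene of 1549 bp. At least 5 optimal summits within 3 kb were found for 1 of the 9 genes, against 0.0901% of all genes, or 18 genes. Among these the count ran from 5, as at mdl-1, to 8 at F23F1.4. Of the 18, the genes 2L52.1, osta-1, best-4, gmeb-1, sqt-2, enee-1, F23F1.4 and F23F1.5 lie together in 1 stretch of chromosome II (1848 to 31584) and can share summits. The background was not matched for gene length. From the upstream end of the mdl-1 cluster on chromosome X, the summit at 6741202 lay 1149 bp upstream of the mdl-1 start, outside the window. It had a pooled signal of 52.7 (rank 1656), close to the lowest optimal peak. It had a signal of 54.5 in replicate 1 (rank 974) and no summit within 100 bp in replicate 2, whose nearest lay 519 bp away. The summit at 6741718, 633 bp upstream, had a signal of 94.4 in the pooled list (rank 546), 60.3 in replicate 1 (rank 802) and 35.5 in replicate 2 (rank 277).

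Close to the mdl-1 start, the summit at 6742278 lay 73 bp upstream and had a signal of 90.5 in the pooled list (rank 596), 82.0 in replicate 1 (rank 417) and 10.1 in replicate 2 (rank 7338, with its summit 84 bp away). The intronic summit at 6743066 had a signal of 123.3 in the pooled list (rank 301), 99.9 in replicate 1 (rank 272) and 21.5 in replicate 2 (rank 924). The highest of the cluster, at 6744015, lay 116 bp past the end of the gene in an exon of the non-coding gene R03E9.10, with a signal of 169.2 in the pooled list (rank 167), 121.7 in replicate 1 (rank 191) and 59.3 in replicate 2 (rank 77). It also fell in the window of the non-coding gene R03E9.7, 257 bp upstream of it, and the summit at 6741202 in that of the non-coding gene R03E9.9, 120 bp upstream of it. The nearest start of another protein-coding gene, R03E9.2, was 7901 bp or more from all 5 summits. Of the mdl-1 summits found in replicate 2, the promoter summit 73 bp upstream was thus the weakest (rank 7338). The other promoter summit, 633 bp upstream, had rank 277 there, and the site past the gene's end was high in both replicates.

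**Figure D3:**
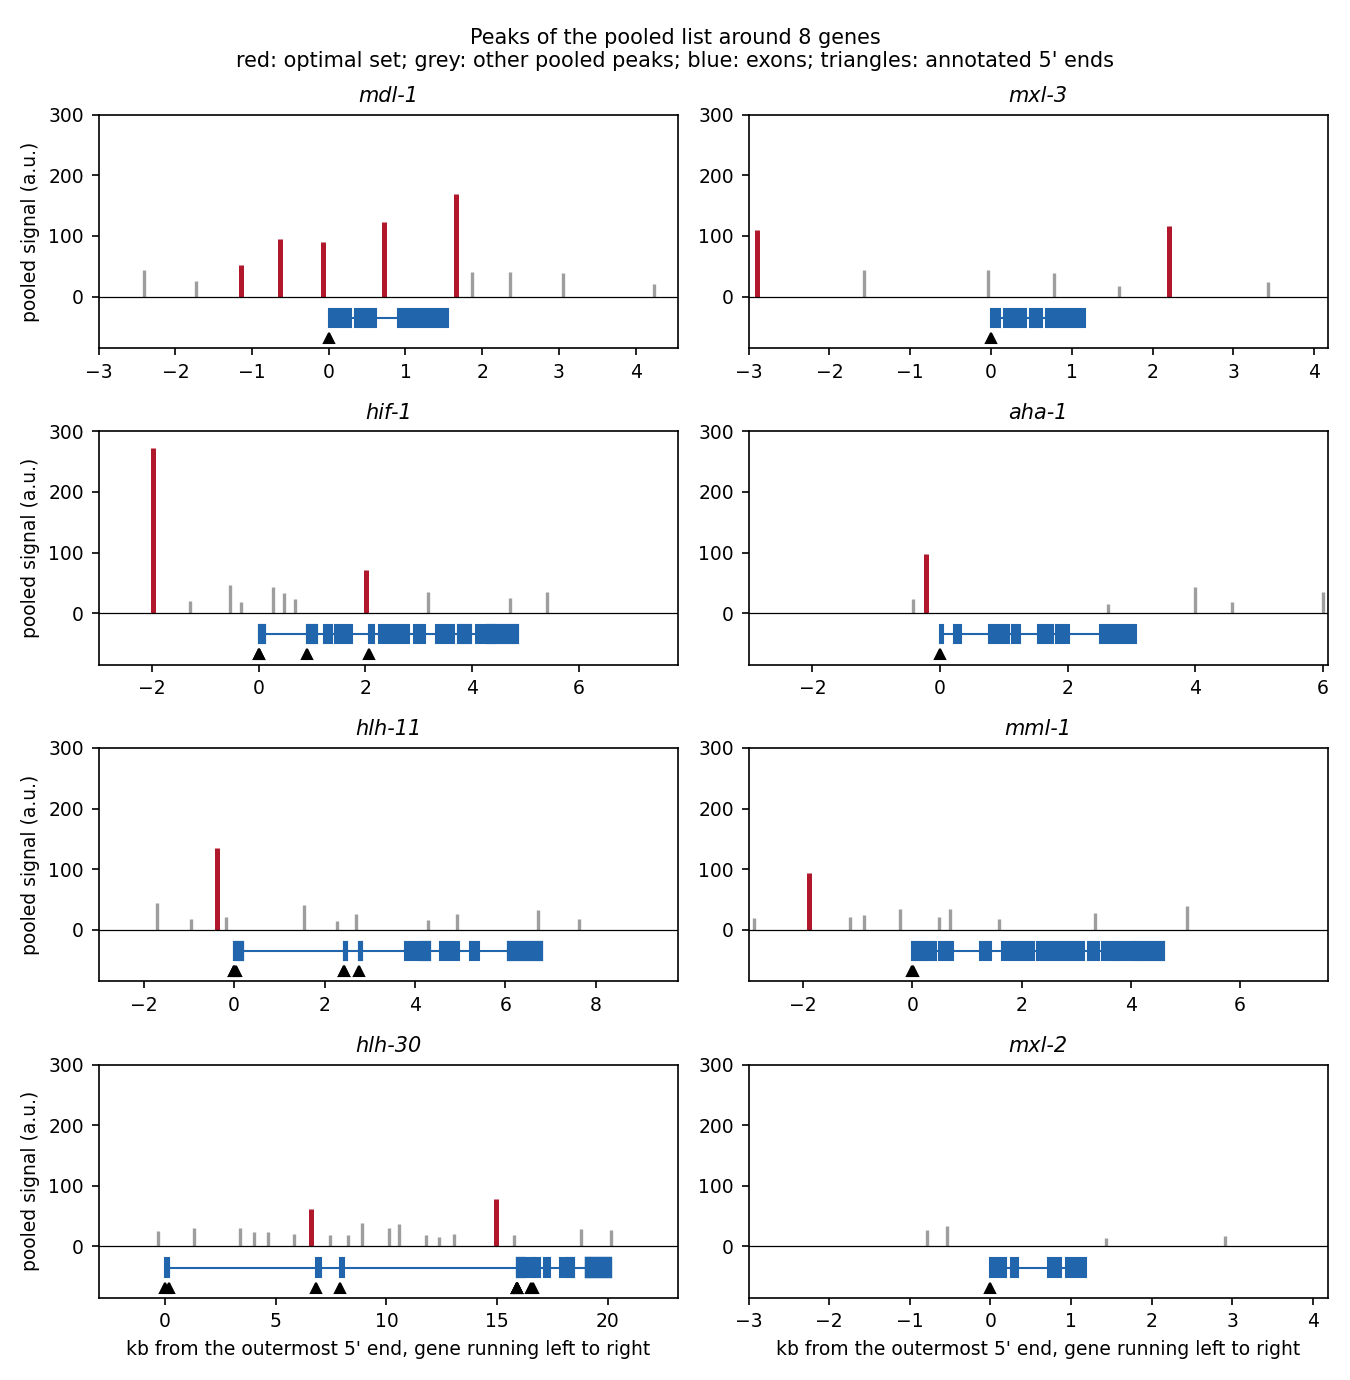
Pooled signal (authors' units) of each pooled peak around 8 of the 9 genes, ahr-1 left out, by distance from the outermost annotated 5′ end (kb), with optimal peaks in red, exons in blue and annotated 5′ ends as triangles. Optimal peaks stand out at 5 places around mdl-1, and the highest hif-1 peak, at 272.5, lies upstream of the gene.

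The genes mxl-3 and mml-1 had their larger peaks away from their annotated starts, and mxl-2 had weak peaks throughout. For mxl-3, optimal summits lay 2893 bp upstream of the start (13353697 on chromosome X) and 1043 bp past the end of the gene (13348596). The upstream summit had a signal of 109.9 in the pooled list (rank 397), 93.03 in replicate 1 (rank 311) and 19.3 in replicate 2 (rank 1180). The summit past the end had a signal of 115.7 in the pooled list (rank 351), 83.1 in replicate 1 (rank 407) and 33.7 in replicate 2 (rank 323). Neither lay in an annotated gene, and the nearest start of another protein-coding gene was 8889 bp (C49F8.15) and 6415 bp (ptr-24) away. In the promoter window of mxl-3 the best pooled summit, 38 bp upstream, had a signal of 43.1 (rank 2388). The matching summits had rank 3005 in replicate 1 and 6142 in replicate 2. The best replicate 2 summit in that window, at rank 3815, lay 94 bp after the start, past the 100 bp limit for a match.

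For mml-1, the optimal summit at 7376619 on chromosome III lay 1888 bp upstream of the nearest mml-1 start and 2426 bp from the nearest start of another protein-coding gene, T20B12.7. Its signal was 93.5 in the pooled list (rank 559), 77.5 in replicate 1 (rank 461) and 20.4 in replicate 2 (rank 1031). Within the promoter window of mml-1 the best pooled summit had a signal of 34.6 (rank 3671), and the best ranks were 6110 in replicate 1 and 1828 in replicate 2. The gene of its partner, mxl-2, had no optimal summit within 3 kb. Its best pooled promoter summit, 535 bp upstream, had a signal of 33.3 (rank 4003), and the matching summit of replicate 1 had rank 5609. The best replicate 2 summit in the mxl-2 window, at rank 2337, lay 667 bp upstream, past the 100 bp limit for a match. Of the 14 summits near the 9 genes, 13 were nearer to a start of the gene named than to that of any other protein-coding gene, and the exception was the aha-1 summit.

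Replicate 1 followed the pooled list closely at these sites and replicate 2 did so less. All 14 summits had a summit of replicate 1 within 100 bp among its 1662 highest peaks, against 1419 of 1662 optimal peaks (85.4%). For replicate 2 the count was 10 of 14 (71.4%), against 998 of 1662 (60.05%). The summits missing from the highest peaks of replicate 2 were those of hlh-11, the hlh-30 site at 238 bp, and the mdl-1 sites at 1149 and 73 bp. Of these, hlh-11 and the mdl-1 site at 73 bp were in the full relaxed list of replicate 2. In all, 12 of 14 (85.7%) were in that list, against 85.8% of all optimal peaks.

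By rank in the pooled list and in both replicates, the bound gene most like hlh-11 was T07E3.4 (ranks 218, 166 and 2306 in the pooled list, replicate 1 and replicate 2). The nearest to aha-1 was lrpr-1 (537, 567 and 688), to mdl-1 rpl-41.2 (532, 729 and 273), to hif-1 allo-1 (902, 1122 and 813), and to hlh-30 rbx-1 (827, 706 and 1380). Likeness was the Euclidean distance of log10 ranks over 1070 bound genes with a peak in all 3 lists, so it describes peak height alone.

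Other bHLH genes and the pathways of these factors were read from lists drawn up with results on these libraries known. Of 32 other bHLH genes, 0 were bound, against 5.94% of all genes. Any pooled relaxed summit in a promoter window was found for 10, against 41.3% of all genes. The highest was that of hlh-14, a factor of neuronal lineages, at 20.3 (rank 13585). With the wider limit of 3 kb, hlh-29, hlh-33 and lin-32 had optimal summits, against 13.5% of all genes. For mxl-1, which encodes the Max partner of MDL-1, and for sbp-1, the worm SREBP, no pooled summit lay in the window. Since the 9 genes were set apart from these with their peaks known, the contrast between the lists is not a result.

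In the hypoxia pathway, 1 of 9 regulators and 1 of 7 output genes were bound, against the 5.94% of all genes. Leaving out replicate 1 gave 0 bound outputs and leaving out replicate 2 gave 2, so the count of outputs rests on which library is used. The bound regulator was rbx-1, the RING subunit of the ubiquitin ligase that acts on HIF-1, with a summit 403 bp upstream of a start and a signal of 77.4 in the pooled list (rank 827), 63.7 in replicate 1 (rank 706) and 18.1 in replicate 2 (rank 1380). Below the optimal set were the best pooled summits of elb-1 (46.4), cysl-1 (42.7), the hydroxylase gene egl-9 (34.03) and elc-1 (15.8), while vhl-1, cul-2, rhy-1 and swan-1 had none in their windows. The bound output was nhr-57, a nuclear receptor gene switched on by HIF-1. Its summit 205 bp upstream had a signal of 92.5 in the pooled list (rank 572), 79.3 in replicate 1 (rank 441) and 7.21 in replicate 2 (rank 17140). Replicate 2 had a higher summit in the same window, just past the 100 bp limit for a match, with a signal of 12.4 (rank 3961), also outside its 1662 highest peaks. The outputs sqrd-1 (49.3), cysl-2 (45.7), fmo-2 (31.4) and phy-2 (18.9) had pooled summits below the optimal set. The chaperone gene of the aryl hydrocarbon receptor that was found in the annotation, daf-41, had a pooled summit of 15.2 and was not bound.

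Among the genes downstream and upstream of HLH-30, 2 of 25 autophagy and lysosome genes were bound (8%), against 5.94% of all genes. The bound genes were lgg-2 and lgg-1, which encode the worm LC3 and GABARAP proteins of the autophagosome membrane. The higher lgg-2 summit, 325 bp upstream of a start, had a signal of 334.2 in the pooled list (rank 29), 260.4 in replicate 1 (rank 30) and 81.5 in replicate 2 (rank 31). It was higher in rank than all 14 summits of the 9 genes, and nearly level in all 3 lists. The other lgg-2 summit, 454 bp upstream of a start, had a signal of 123.4 in the pooled list (rank 300), 101.1 in replicate 1 (rank 259) and 23.7 in replicate 2 (rank 750). The lgg-1 summit 913 bp upstream had a pooled signal of 90.7 (rank 591), with rank 400 in replicate 1 and 15604 in replicate 2, and the one 130 bp upstream had a pooled signal of 75.2 (rank 876), with rank 609 in replicate 1 and no summit of replicate 2 within 100 bp. Both lgg-1 peaks were high in replicate 1 and low or without a matching summit in replicate 2.

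Of 8 genes of TORC1, the nutrient kinase complex, and of nuclear export, 2 were bound, against 5.94% of all genes. The count was 1 when each summit went to its nearest 5′ end, 3 without replicate 1 and 4 with the 2000 bp window. The rheb-1 summit, 292 bp upstream of the start of this TORC1 activator, had a signal of 124.2 in the pooled list (rank 295), 100.6 in replicate 1 (rank 265) and 30.5 in replicate 2 (rank 423), and was shared with the window of spk-1. The summit of flcn-1, the worm folliculin gene, had a signal of 90.7 in the pooled list (rank 590), 62.6 in replicate 1 (rank 738) and 22.8 in replicate 2 (rank 807), and was shared with F22D3.4 and linc-35. Of 8 genes on the list of lipases and their partners, 0 were bound. The best pooled summits were those of lid-1 (42.5) and of atgl-1 (27.3), the triglyceride lipase gene that HLH-11 is known to repress. The lid-1 summit lay 3996 bp from the aha-1 start, past the end of aha-1. Over all lists 6 of 90 genes were bound (6.67%), close to the background of 5.94%. These 90 include the 32 other bHLH genes, with 0 bound, which were set apart from the 9 genes with peaks known. The share over all lists, and its closeness to the background, is therefore partly made by how the lists were drawn up. With the window widened to 2000 bp upstream, 14 of 90 were bound (15.6%), against 7.93% of all genes. With the 831 highest optimal peaks alone, 6 of 90 were bound (6.67%), against 3.43% of all genes. The closeness thus also depends on the window and on the peak set. Of the 90, 20 had relaxed summits of both replicates, against 2759 of all 19973 protein-coding genes (13.8%).

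**Figure D4:**
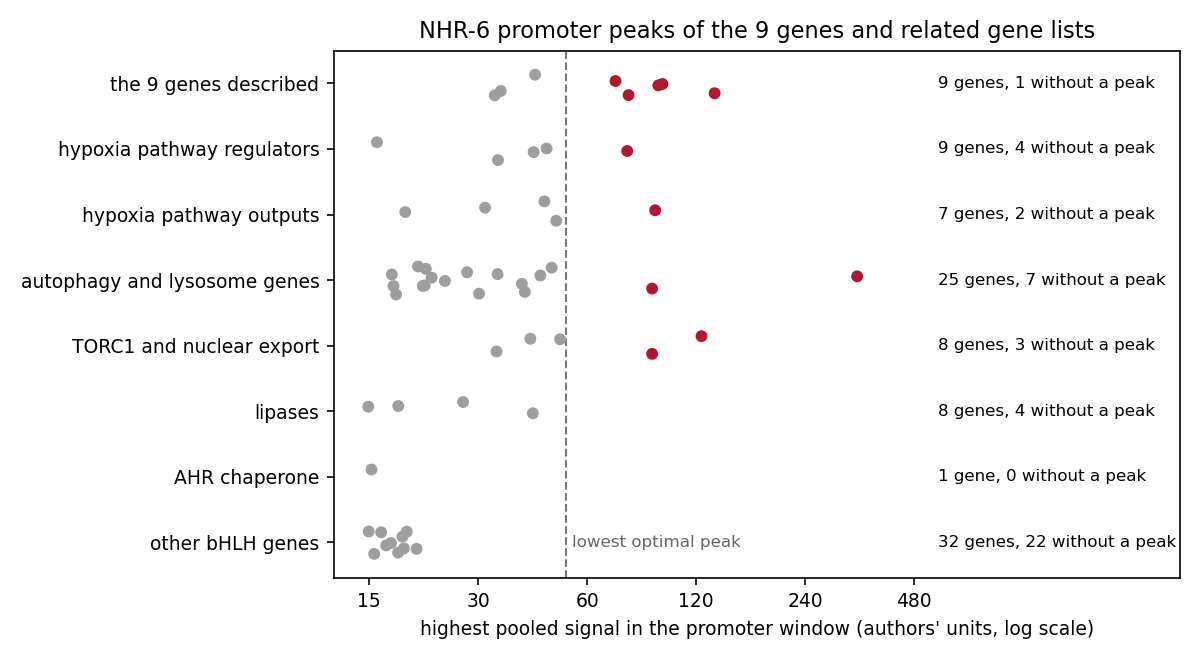
Highest pooled signal in the promoter window of each gene (authors' units, log axis) for the 9 genes and the related lists, with bound genes in red and the lowest optimal peak as a dashed line. The 5 bound genes of the 9 lie right of the line, while all 10 other bHLH genes with a peak lie left of it, at 20.3 or lower, a contrast that the choice of the 9 genes takes part in.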

How the data were processed

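Peak lists on ce11, the same assembly as WBcel235, were used, and ce10 lists were not. Per the file list deposited with each sample, the authors derived a relaxed list from each replicate, 1 from both together, and the optimal set from these with the irreproducible discovery rate (IDR). The aligner, the peak caller and the threshold on IDR were not given in the sources used here. The deposited signal per peak is the authors' own, from a narrowPeak column with no stated scaling. The deposited lists also hold −log10 of the q-value, used in 1 alternative (q at most 0.01). Replicates came from separate biosamples per the labels.

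Summits were assigned to 5′ ends of all transcripts of protein-coding genes in Ensembl release 115 (1000 bp upstream, 200 bp downstream), with Python 3.11.15, pandas 2.3.3 and numpy 2.4.6. Replicate summits within 100 bp were matched. The assignment was checked on planted summits. Named genes were the 9 members, genes sharing their summits, the most alike bound gene of each, and up to 4 bound genes per pathway list by pooled signal, with other list genes given by value. Members, lists and alternatives were chosen with earlier results of these data known, and the 3 kb limit and the GA repeat after seeing the values. The listed symbol daf-21 was not found. No test was made.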

Additional observations from a re-analysis of the deposited data

How the results depend on the processing

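The count of bound genes among the 9 was 5 with windows of 1000 or 500 bp, 6 with 2000 bp (mml-1 added), 4 when each summit went to its nearest 5′ end (aha-1 lost) and 4 with the 831 highest optimal peaks (hif-1 lost). Leaving out a replicate gave 4 to 5, with hlh-11 lost without replicate 1. The share of all genes bound, 5.94%, moved to 3.43% with the 831 highest peaks. The related lists had 14 bound genes of 90 (15.6%) with the 2000 bp window, against 7.93% of all genes, and 6 (6.67%) with 1000 bp, against 5.94%. With the 831 highest peaks they also had 6 (6.67%), against 3.43%. At least 1 of the 5 planned sequences lay within 50 bp of 2 of the 7 promoter summits, within 25 bp of 1 and within 100 bp of 4, against 35.9%, 20.3% and 52.0% of all optimal peaks. The genes with relaxed summits of both replicates numbered 6, against 5 within 50 bp (hlh-30 lost), 8 within 200 bp and 4 at a q-value of at most 0.01. The intronic mdl-1 peak was found in every setting tried for it. Read depth, which is unknown, limits what the ranks of weak peaks in replicate 2 can show.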
